A study of Homo sapiens with 42 samples.

Results

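LM2 cells, an MDA-MB-231 breast cancer derivative described in the labels as highly metastatic to the lungs, were given the compound T4 for 6 h and followed to 24 h. The comparison holds 6 libraries, T4 24 h 1 to 3 and T4 6 h 1 to 3, out of 42 in the study and 18 in the T4 time course. The T4 24 h cells received 3 µM T4 in DMSO for 6 h, then fresh medium, and were harvested at 24 h. The T4 6 h cells were harvested at the end of the same 6 h exposure. DMSO 24 h and DMSO 6 h cells, 3 libraries each, were handled the same way with an equal volume of the solvent. The libraries were chosen by their labels alone. What T4 is, and whether replicates came from separate cultures, is not given in the sources used here, so the p-values reflect how far these particular libraries scatter, and that scatter may be technical.

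Total RNA was read from its 3′ ends (QuantSeq REV), so each read reports a transcript at the place where it was cleaved and polyadenylated. Many genes have several such places, or poly(A) sites, and use of an upstream (proximal) rather than a downstream (distal) site shortens the transcript. After an exposure ends, the level of an RNA depends on its synthesis and on its decay, and RNAs with short lives, such as those of immediate early genes, can change within hours. Bulk RNA does not tell fewer cells with a transcript apart from less of it in each cell.

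Depth was 1.323 ± 0.103 M counts in T4 24 h and 1.193 ± 0.234 M counts in T4 6 h libraries (SD, n = 3 each). T4 6 h library 3 was the shallowest, with 925167 counts, and the least complex of the 18: it had 11709 entries above 0, against 17241 to 21427 in the others, and its 10 most abundant genes took 16.02% of its reads. Results that rest on it are given with and without it. Levels are in CPM, counts scaled to library size times a normalisation factor (TMM). This factor was 0.8435, 0.8622 and 0.4988 in T4 6 h libraries 1 to 3, and 0.9481 to 0.999 in T4 24 h libraries. The low factor of T4 6 h library 3 raises its CPM relative to scaling by library totals alone. A level of library 3 above its partners can therefore reflect the scaling. Changes are log2 values ± standard error, T4 24 h over T4 6 h unless said otherwise. A gene is said to have risen or fallen when its adjusted p was under 0.05 (edgeR quasi-likelihood test with Benjamini-Hochberg adjustment over all genes tested), and every adjusted p below is from that test.

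Among markers of MDA-MB-231-like basal mesenchymal cells, 11 of 12 were measured and their summed level was 2309 to 2409 CPM in T4 24 h and 2477 to 3194 CPM in T4 6 h libraries. EGFR (1.80) and CAV1 (0.72, adjusted p = 0.02) rose, AXL (−1.18) and LGALS1 (−0.65, adjusted p = 0.018) fell, and 7 did not pass the test. The rise of CAV1 was not called without T4 24 h library 1 (0.64) or 3 (0.71), nor the fall of LGALS1 without T4 24 h library 2 (−0.56) or T4 6 h library 2 (−0.60) or with library totals (−0.26). Without T4 6 h library 3, 3 of the 11 rose and 3 fell. Among those not called, the adhesion receptor CD44 stood at 109.7, 98.6 and 95.7 CPM in T4 24 h and at 129, 105 and 90.9 CPM in T4 6 h libraries. VIM, which encodes the mesenchymal filament protein vimentin, stood at 147, 185 and 231 CPM in T4 24 h, against 482, 398 and 43.2 CPM in T4 6 h libraries, where library 3 lay far below its 2 partners. Of 9 luminal and HER2 markers, 3 were measured, with sums of 58.4 to 83.1 CPM in T4 24 h and 30 to 43.2 CPM in T4 6 h, and KRT8 (0.90, adjusted p = 0.012) and GATA3 (1.74, adjusted p = 0.024) among them rose. The rise of GATA3 was not called without T4 24 h library 1 or 3 or T4 6 h library 1 or 2 (1.18 to 1.91), nor that of KRT8 without T4 24 h library 1 (0.75) or T4 6 h library 1 (0.76). Of 10 immune markers only CD68 was measured, with 9.73 to 15.2 CPM in T4 24 h and 6.82 to 31.8 CPM in T4 6 h (−1.04, adjusted p = 0.091). Of 12 fibroblast and endothelial markers only COL1A1 was measured, with 13.8 to 20.3 CPM in T4 24 h and 18.2 to 28.0 CPM in T4 6 h (−0.42, adjusted p = 0.28). The part of other cells in the results below was not tested.

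Between 6 h and 24 h after the start of T4, 1602 of 8035 genes tested changed (19.9%): 1223 rose (15.2%) and 379 fell (4.72%). Among genes with at least 20 CPM in the higher group, PPP1R10, RUNX1, PATZ1, ARMC7 and FAM83G were some of those that rose furthest, by log2 changes of 3.80 to 5.14. FOXC1, JUNB, IER3 and AHNAK were among those that fell, by 1.92 to 2.34 on the log2 scale. Of the 1223 genes that rose, 1050 also did so without T4 6 h library 3, as did 279 of the 379 that fell. The T4 24 h and T4 6 h libraries did not overlap in CPM for 1189 of the 1223 and 328 of the 379. Genes named below for the largest changes were required not to overlap, so their separation is no further evidence. The split depended on scaling: 1048 rose and 510 fell with median-of-ratios factors, and 1782 rose and 81 fell with library totals, under which the median gene moved by 0.41 instead of 0.05. When only the 6 libraries were fitted, which also left 6221 genes tested, 452 rose and 39 fell.

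PPP1R10 encodes PNUTS, a regulatory subunit of protein phosphatase 1 that acts at RNA polymerase II (chr6:30600400-30618612, minus strand, GRCh38, as are all positions below). Its level was 47.8, 60.7 and 63.2 CPM in T4 24 h libraries, against 2.73, 0 and 2.27 CPM in T4 6 h libraries. All T4 24 h libraries were high and all T4 6 h libraries close to 0, with DMSO at 46.1 CPM at 24 h and 53.5 CPM at 6 h (5.14 ± 0.49, adjusted p = 1.7e-06). RUNX1, a runt-domain transcription factor (chr21:34787801-36004667), stood at 46.9, 42.5 and 30.8 CPM in T4 24 h and at 1.82, 0.933 and 4.54 CPM in T4 6 h. The groups did not overlap, and the DMSO means were 28.3 CPM at 24 h and 27.6 CPM at 6 h (4.30 ± 0.40, adjusted p = 1.6e-06). PATZ1, a zinc-finger transcription factor (chr22:31325804-31346232), stood at 38, 44 and 38.9 CPM in T4 24 h and at 0.909, 2.8 and 4.54 CPM in T4 6 h (4.07 ± 0.37, adjusted p = 1.2e-06). Here too every T4 24 h library was above every T4 6 h library, and T4 24 h did not differ from DMSO 24 h by the test (0.44, adjusted p = 0.23).

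FAM83G (chr17:18968789-19004804) had 144, 119 and 105 CPM in T4 24 h and 7.27, 6.53 and 15.9 CPM in T4 6 h (3.80 ± 0.27, adjusted p = 1.0e-07). RIPK1, a kinase of tumour necrosis factor receptor signalling, had 30.1, 33.4 and 30.8 CPM in T4 24 h and 1.82, 3.73 and 2.27 CPM in T4 6 h (3.51 ± 0.42, adjusted p = 2.2e-05). In both genes the 3 T4 6 h libraries lay close together, far under the T4 24 h libraries. B3GALT5 (a galactosyltransferase, 3.44), TNS3 (the focal adhesion protein tensin 3, 3.86) and PRAG1 (4.02) also rose, with adjusted p-values of 5.5e-06 to 7.4e-04, and their DMSO means at both times were above that of T4 6 h.

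Some genes had almost no reads at the end of the exposure. ASB7 had 24 counts over the T4 24 h libraries and 0 over the T4 6 h libraries, which makes it at least 5.67-fold higher at 24 h, taking 3 counts over the group as the floor. By the same floor NFKB2, which encodes an NF-κB subunit precursor, and the tyrosine phosphatase gene PTPRE were at least 5.2-fold higher, each with 22 counts in T4 24 h and 0 in T4 6 h. C12orf65, needed for release of mitochondrial peptides, had 98 counts in T4 24 h and 3 in T4 6 h, a ratio of 23.2 with a 95% counting interval of 7.7 to 114. SHROOM3, an actin-binding regulator of cell shape, had 73 counts in T4 24 h and 3 in T4 6 h, a ratio of 17.3 (5.68 to 85.6). These intervals cover counting error only.

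Among the genes that fell, FOXC1, a forkhead factor typical of basal-like breast cancer (chr6:1609972-1613897), stood at 41.6, 54.6 and 51.1 CPM in T4 24 h, against 290.0, 299 and 152 CPM in T4 6 h. The groups did not overlap, library 3 being the lowest of the T4 6 h libraries, and DMSO stood at 72 CPM at 24 h and 79 CPM at 6 h (−2.34 ± 0.28, adjusted p = 1.6e-05). AHNAK, a giant scaffold protein (chr11:62433542-62556235), had 195, 179 and 208 CPM in T4 24 h and 645, 644 and 1163 CPM in T4 6 h (−2.07 ± 0.22, adjusted p = 5.5e-06). Library 3 was here the highest on the CPM scale, which its low normalisation factor raises, and the DMSO means were 161 CPM at 24 h and 179 CPM at 6 h. FOXO1, a stress-responsive forkhead factor, had 15, 11.4 and 16.2 CPM in T4 24 h and 42.7, 47.6 and 86.3 CPM in T4 6 h (−1.98 ± 0.30, adjusted p = 1.9e-04). ARGLU1, a protein linked to splicing, had 41.6, 22 and 34.1 CPM in T4 24 h and 122, 109 and 141 CPM in T4 6 h (−1.92 ± 0.23, adjusted p = 2.4e-05).

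RNAs annotated as non-coding were also among the largest falls. AC005840.4, which lies antisense to VAMP1, had 3.54, 3.03 and 6.49 CPM in T4 24 h and 30.9, 46.7 and 36.4 CPM in T4 6 h (−3.11 ± 0.40, adjusted p = 3.6e-05). FLJ37453, antisense to SPEN, had 9.73, 12.1 and 12.2 CPM in T4 24 h and 68.2, 98.9 and 65.9 CPM in T4 6 h (−2.78 ± 0.27, adjusted p = 2.2e-06). Neither pair of groups overlapped, which the naming rule required. How strand was used in counting is not stated, so reads of these RNAs and of the genes on the other strand may not be separable. PPP1R10, too, overlaps a gene on the other strand, MRPS18B.

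**Figure D1:**
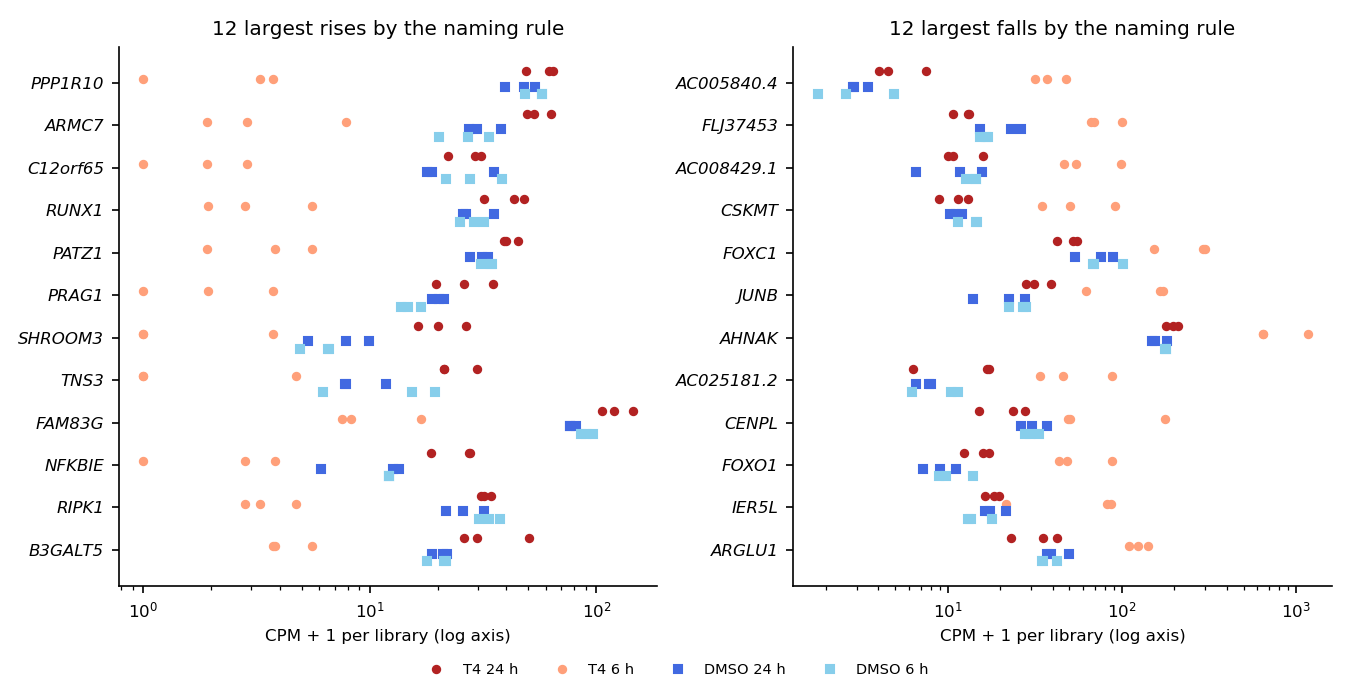
Level of each gene in each library, as CPM + 1 on a log axis, for the 12 genes with the largest rises (left) and the 12 with the largest falls (right) by the naming rule; each point is a library, with T4 24 h above T4 6 h, DMSO 24 h and DMSO 6 h within a gene. PPP1R10 stands near its DMSO levels in T4 24 h (47.8 to 63.2 CPM) and near 0 in T4 6 h, and FOXC1 stands lower in T4 24 h (41.6 to 54.6 CPM) than in T4 6 h (152 to 299 CPM).

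In DMSO over the same hours no gene changed by edgeR (0 of 8035, 0.0%), and 485 had an unadjusted p under 0.05. DESeq2 called 3, edgeR with no expression filter called 105, and edgeR fitted to the DMSO libraries alone called 617. The change over time differed between T4 and DMSO for 731 genes by the interaction test (9.1%), 582 with a larger rise or smaller fall after T4 (7.24%) and 149 with the reverse (1.85%). This count was 1127 without T4 6 h library 3, 711 in the first direction and 416 in the second. Of the 1223 genes that rose, 572 (46.8%) were called in that test, as were 134 (35.4%) of the 379 that fell. PPP1R10 (interaction 5.35, adjusted p = 2.4e-05), FAM83G (4.02, adjusted p = 2.8e-06), AHNAK (−1.92, adjusted p = 8.3e-04) and FLJ37453 (−3.21, adjusted p = 5.6e-05) were among them.

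Most genes that were lower than in DMSO at the end of the exposure rose afterwards. At 6 h, 1287 genes differed between T4 and DMSO (16.0%), of which 1013 were lower in T4 (12.6%) and 274 higher (3.41%). Of the 1013, 762 (75.2%) then rose between T4 6 h and T4 24 h, and 486 of these also passed the interaction test. Of the 274, 95 (34.7%) then fell, 38 of them with the interaction. The comparisons share the T4 6 h libraries, which ties these counts together, and the difference between both shares was not tested. Without T4 6 h library 3, 707 of 905 (78.1%) rose and 105 of 222 (47.3%) fell. Relative to DMSO, the 1013 genes had a median log2 difference of −1.60 at 6 h and −0.04 at 24 h, where 42 (4.15%) were still called lower. The 274 had a median of 1.17 at 6 h and 0.44 at 24 h, where 32 (11.7%) were still called higher and 229 lay above 0. Relative to DMSO at 24 h, 421 of all genes differed (5.24%), 177 higher in T4 (2.2%) and 244 lower (3.04%).

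Of the 1223 rising genes, 762 (62.3%) had been called lower than DMSO at 6 h, and 93 were above DMSO at 24 h. Of the 379 falling genes, 95 (25.1%) had been called higher than DMSO at 6 h, 282 had not been called at 6 h, and 107 were below DMSO at 24 h. These counts again share the T4 6 h libraries, and the difference between rising and falling genes was not tested. AXL, a receptor tyrosine kinase of mesenchymal breast cancer cells, had 269, 277 and 295 CPM in T4 24 h and 560.1, 574 and 770.3 CPM in T4 6 h, with DMSO at 656 CPM at 24 h and 572 CPM at 6 h. It fell (−1.18 ± 0.19, adjusted p = 3.3e-04) and lay below DMSO at 24 h (−1.23, adjusted p = 0.002). NELFE, a subunit of the negative elongation factor, had 54.8, 37.2 and 50.3 CPM in T4 24 h and 114, 133 and 245 CPM in T4 6 h. It also fell (−1.76 ± 0.27, adjusted p = 2.1e-04) and lay below DMSO at 24 h (−1.19, adjusted p = 0.015). SNHG16, a small nucleolar RNA host gene, behaved alike, with 69.9, 60.7 and 64.1 CPM in T4 24 h and 148, 133 and 211 CPM in T4 6 h (−1.32 ± 0.20, adjusted p = 1.6e-04; against DMSO at 24 h −0.96, adjusted p = 0.0079).

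An overshoot here means a change past DMSO in the direction opposite to that at 6 h, with all 3 differences called. It was found for 25 genes, 23 of the 1013 (2.27%) and 2 of the 274 (0.73%). Over all genes tested, 2.2% were called higher than DMSO at 24 h and 3.04% lower. The first share was thus near its background and the second below it. At 6 h, 19 of the 25 were still called without T4 6 h library 3. With library totals 9 and 0 genes were called the opposite way at 24 h, and with DESeq2 35 and 15. All calls of T4 against DMSO at 24 h, 421, became 164 to 229 with each 24 h library left out. SMAD3, the signal transducer of TGF-β receptors (chr15:67063763-67195195), had 106, 84.9 and 104 CPM in T4 24 h and 12.7, 17.7 and 11.4 CPM in T4 6 h, with DMSO at 38.9 CPM at 24 h and 50.9 CPM at 6 h. Every T4 24 h library stood above both DMSO means (2.76 ± 0.26, adjusted p = 1.6e-06; against DMSO at 24 h 1.33, adjusted p = 0.0023). CDK12, a kinase of the RNA polymerase II tail (chr17:39461511-39564907), had 99.9, 100.1 and 92.4 CPM in T4 24 h and 14.5, 14 and 25 CPM in T4 6 h, with DMSO at 43.3 CPM at 24 h and 58.4 CPM at 6 h. Its groups were again fully apart (2.55 ± 0.23, adjusted p = 9.5e-07; against DMSO at 24 h 1.17, adjusted p = 0.0022). RELB, an NF-κB subunit, had 53.1, 42.5 and 30.8 CPM in T4 24 h and 5.46, 9.33 and 11.4 CPM in T4 6 h (2.35 ± 0.32, adjusted p = 5.9e-05; against DMSO at 24 h 1.26, adjusted p = 0.0075).

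The NF-κB inhibitor gene NFKBIE followed the same course with 17.7, 26.5 and 26.8 CPM in T4 24 h and 1.82, 2.8 and 0 CPM in T4 6 h (3.59 ± 0.49, adjusted p = 6.8e-05; against DMSO at 24 h 1.27, adjusted p = 0.029). HNRNPDL, an hnRNP-like RNA-binding protein, had 348, 424 and 418 CPM in T4 24 h and 183, 171 and 107 CPM in T4 6 h, with DMSO at 174 CPM at 24 h and 248 CPM at 6 h. Its difference from DMSO at 6 h (−0.67, adjusted p = 0.032) was lost without T4 6 h library 3 (−0.48, adjusted p = 0.067). FBXO32 (a ubiquitin ligase subunit), ZNF566 (a zinc-finger protein) and SKIL (a repressor of SMAD signalling) lay above DMSO at 24 h by 1.67, 1.43 and 1.42, with adjusted p-values of 0.024 to 0.044, and their T4 24 h means were only 12.4 to 18.1 CPM. ZNF566 and SKIL also lost the call at 6 h without T4 6 h library 3, and SKIL that over time without T4 6 h library 2 (1.28). CARS2, the mitochondrial cysteinyl-tRNA synthetase, went the other way: 28.3, 32.6 and 31.6 CPM in T4 24 h and 86.4, 77.5 and 168 CPM in T4 6 h, with DMSO at 69.6 CPM at 24 h and 64.8 CPM at 6 h. Its higher level at 6 h (0.72, adjusted p = 0.041) was not called without library 3 (0.35, adjusted p = 0.19).

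**Figure D2:**
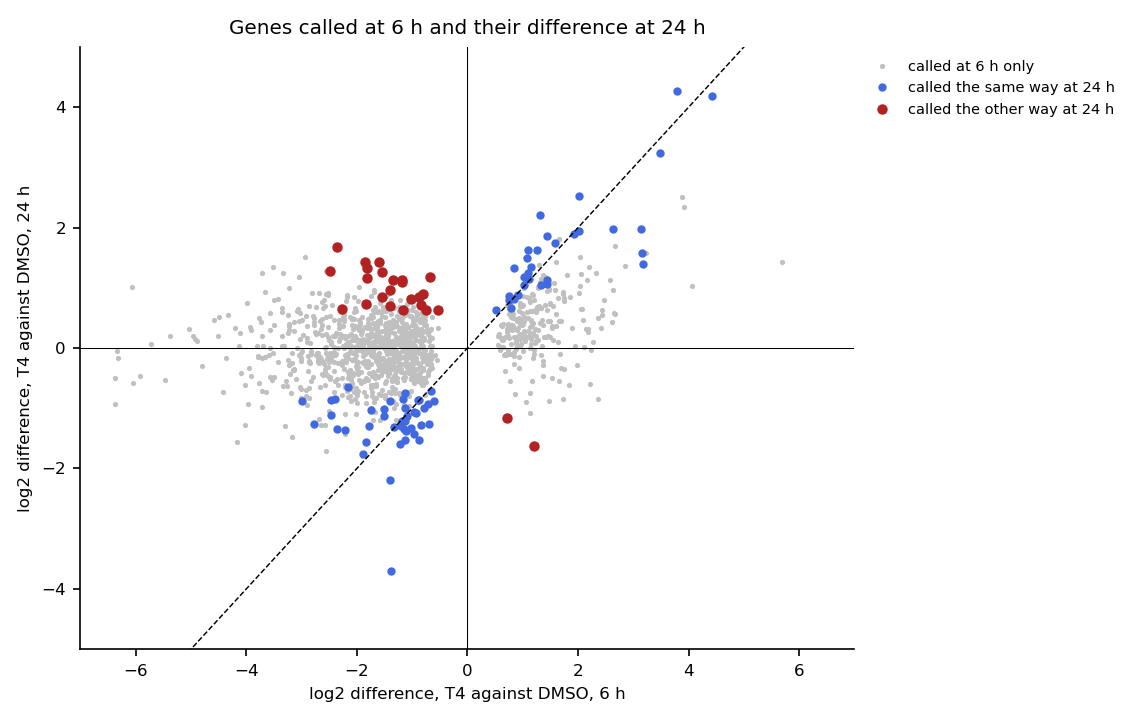
Log2 difference between T4 and DMSO at 24 h (vertical axis) against that at 6 h (horizontal axis) for the 1287 genes called at 6 h. Each point is a gene, grey where it was called at 6 h only, blue where it was called the same way at 24 h and red for the 25 called the other way, and the dashed line marks equal differences. Genes low at 6 h lie around 0 at 24 h (median −0.04) and those high at 6 h mostly above 0 (median 0.44).

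Of 12 immediate early genes measured, which encode fast-induced transcription factors and regulators, 6 fell, 1 rose and 5 did not pass the test, against backgrounds of 4.72% falling and 15.2% rising. With T4 6 h library 3 left out the counts were again 6 and 1, and with library totals 5 and 1. Over all genes, 1282 of 8405 rose and 596 fell without that library, and 1782 of 8035 rose and 81 fell with library totals. The counts of the lists below stand against the same backgrounds. No set test was run, and counts near the background are not read as a trait of a list. JUNB, an AP-1 subunit, had 30.1, 27.3 and 38.1 CPM in T4 24 h and 171, 165 and 61.4 CPM in T4 6 h (−2.10 ± 0.32, adjusted p = 1.8e-04). IER3, a stress-induced survival gene, had 3840, 3513 and 2722 CPM in T4 24 h and 7973, 8585 and 21473 CPM in T4 6 h (−1.92 ± 0.31, adjusted p = 3.4e-04). In both genes all T4 6 h libraries were above all T4 24 h libraries, yet library 3 was the lowest for JUNB and the highest for IER3. FOS had 0, 3.03 and 1.62 CPM in T4 24 h and 10, 9.33 and 20.5 CPM in T4 6 h, with both DMSO means under 1 CPM (−2.83 ± 0.70, adjusted p = 0.0079). FOSL2, a FOS-related subunit, was the member that rose, with 143, 139 and 102 CPM in T4 24 h and 24.5, 27.1 and 38.6 CPM in T4 6 h (2.14 ± 0.23, adjusted p = 6.0e-06).

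Of 23 cleavage and polyadenylation factors measured, 8 rose and 0 fell, and without T4 6 h library 3 the counts were 6 and 1. Over all genes tested, 15.2% rose and 4.72% fell. CSTF3, the scaffold of the cleavage stimulation factor, had 24.8, 27.3 and 27.6 CPM in T4 24 h and 2.73, 3.73 and 0 CPM in T4 6 h (3.28 ± 0.44, adjusted p = 5.9e-05). PCF11, a termination factor that binds the polymerase tail, had 20.3, 24.3 and 10.5 CPM in T4 24 h and 0.909, 2.8 and 0 CPM in T4 6 h (3.52 ± 0.60, adjusted p = 4.9e-04). CPSF7, a subunit of cleavage factor I, had 12.4, 19 and 17 CPM in T4 24 h and 1.82, 1.87 and 0 CPM in T4 6 h (3.34 ± 0.50, adjusted p = 1.6e-04). The groups did not overlap for any of these. None of the list's 23 genes differed from DMSO at 24 h by the test, which is near the 5.24% over all genes tested. Of 20 SR splicing factors measured, 4 rose and 3 fell, SRSF3 rising (0.89, adjusted p = 0.004) and SRRM2 falling (−0.82, adjusted p = 0.0028). With library totals, 4 rose and 0 fell. Of 24 hnRNP genes 2 rose and 0 fell, or 2 and 2 without T4 6 h library 3.

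Among 25 bromodomain, P-TEFb and elongation genes measured, 8 rose and 3 fell, and 8 and 4 did so without T4 6 h library 3. CDK12 (above) and its relative CDK13 rose, CDK13 with 16.8, 12.9 and 12.2 CPM in T4 24 h and 0.909, 1.87 and 4.54 CPM in T4 6 h (2.78 ± 0.47, adjusted p = 4.6e-04). MEPCE, which caps the 7SK RNA that holds P-TEFb inactive, rose too, with 215, 243 and 209 CPM in T4 24 h and 62.7, 60.7 and 116 CPM in T4 6 h (1.52 ± 0.25, adjusted p = 4.2e-04). BRD2, a bromodomain reader of acetylated histones, fell, with 380.3, 482 and 529.5 CPM in T4 24 h and 1111, 1029 and 1631 CPM in T4 6 h (−1.44 ± 0.27, adjusted p = 0.0012).

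Integrated stress response genes, targets of the factor ATF4, rose in 8 of 23 cases and 0 fell, or 8 and 2 without T4 6 h library 3. DDIT3, encoding the stress factor CHOP, had 104, 93.3 and 98.9 CPM in T4 24 h and 27.3, 21.5 and 27.3 CPM in T4 6 h, with DMSO at 107 CPM at 24 h and 133 CPM at 6 h (1.97 ± 0.20, adjusted p = 3.0e-06). GDF15, a stress-induced secreted factor, differed from it in that T4 6 h stood at the DMSO level. It had 76.1, 80.4 and 54.3 CPM in T4 24 h and 19.1, 29.9 and 29.5 CPM in T4 6 h, with DMSO at 16.9 CPM at 24 h and 28.4 CPM at 6 h (1.45 ± 0.24, adjusted p = 4.3e-04; against DMSO at 24 h 2.05, adjusted p = 9.8e-05). CHAC1, a glutathione-degrading enzyme, rose by 2.45 (adjusted p = 0.004), and SLC7A5, a neutral amino acid transporter, by 1.01 (adjusted p = 0.0016). Of 20 NRF2 antioxidant genes 5 rose and 0 fell, or 5 and 1 without T4 6 h library 3. OSGIN1, an oxidative stress-induced growth inhibitor, had 25.7, 23.5 and 21.9 CPM in T4 24 h and 3.64, 6.53 and 2.27 CPM in T4 6 h (2.36 ± 0.43, adjusted p = 9.5e-04). TXNRD1, thioredoxin reductase, had 64.6, 87.2 and 108 CPM in T4 24 h and 30, 28.9 and 0 CPM in T4 6 h, the 0 being library 3 (1.93 ± 0.45, adjusted p = 0.0057).

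In the TGF-β pathway 5 of 10 measured genes rose and 0 fell, with and without T4 6 h library 3, and 2 of the 10, SMAD3 and SKIL, were above DMSO at 24 h. TGFB2, a ligand, had 160.1, 204 and 272 CPM in T4 24 h and 97.3, 86.8 and 20.5 CPM in T4 6 h, with library 3 the lowest (1.57 ± 0.33, adjusted p = 0.0026). TGFBR3, a co-receptor, rose by 1.68 ± 0.31 (adjusted p = 9.0e-04). Of 9 NF-κB genes 4 rose, among them RELB and NFKBIE, and 1 fell, or 3 and 2 without T4 6 h library 3. The member that fell was CSF3, a granulocyte growth factor, with 11.5, 6.83 and 4.87 CPM in T4 24 h and 17.3, 18.7 and 18.2 CPM in T4 6 h (−1.23 ± 0.38, adjusted p = 0.031). Its fall was not called with library totals (−0.86), nor without T4 24 h library 2 or 3 or T4 6 h library 1 or 2 (−1.27 to −0.99). EGFR, the epidermal growth factor receptor, had 103, 80.4 and 105 CPM in T4 24 h and 27.3, 33.6 and 18.2 CPM in T4 6 h (1.80 ± 0.23, adjusted p = 3.4e-05).

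YAP targets and matricellular genes went both ways, with 5 of 13 rising and 3 falling. ANKRD1, a YAP target, had 701, 878 and 1023 CPM in T4 24 h and 273, 250.1 and 111 CPM in T4 6 h, with DMSO at 736 CPM at 24 h and 916 CPM at 6 h (2.02 ± 0.31, adjusted p = 1.7e-04). AJUBA, a LIM-domain adaptor of the same pathway, rose by 3.25 ± 0.46 (adjusted p = 1.0e-04), while AXL (above) fell. Of 8 lung metastasis signature genes measured 2 rose, against 15.2% of all genes tested. ANGPTL4, an angiopoietin-like secreted protein, had 94.6, 102 and 96.5 CPM in T4 24 h and 41.8, 26.1 and 45.4 CPM in T4 6 h (1.40 ± 0.23, adjusted p = 3.4e-04). It also lay above DMSO at 24 h by 0.74 (adjusted p = 0.047), its DMSO means being 58.5 CPM at 24 h and 133 CPM at 6 h. The matrix protease MMP1 had 89.3, 62.2 and 71.4 CPM in T4 24 h and 23.6, 36.4 and 45.4 CPM in T4 6 h (1.13, adjusted p = 0.0034).

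Of 36 mitotic genes 10 rose and 3 fell, or 10 and 5 without T4 6 h library 3. AURKA, the spindle kinase Aurora A, had 366, 347 and 403 CPM in T4 24 h and 105, 161 and 90.9 CPM in T4 6 h, with DMSO at 328 CPM at 24 h and 332 CPM at 6 h (1.63 ± 0.21, adjusted p = 4.3e-05). NDC80, a kinetochore protein, had 46.9, 40.2 and 38.1 CPM in T4 24 h and 9.09, 9.33 and 11.4 CPM in T4 6 h (2.10 ± 0.26, adjusted p = 2.7e-05). Of 31 replication and S phase genes 7 rose and 2 fell, or 6 and 5 without T4 6 h library 3. The shares over all genes tested were 15.2% rising and 4.72% falling. MCM10, which helps to activate the replicative helicase, had 78.7, 85.7 and 68.9 CPM in T4 24 h and 16.4, 17.7 and 15.9 CPM in T4 6 h (2.21 ± 0.24, adjusted p = 5.5e-06).

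In housekeeping and metabolic groups few genes were called or the counts depended on the scaling. Of 56 cytosolic ribosomal proteins only RPL37 rose and 0 fell by edgeR, with a list median of −0.34. Without T4 6 h library 3, 13 fell, and with DESeq2 20 fell, so no direction is given for this family. RPL37 had 178, 124 and 109 CPM in T4 24 h and 29.1, 37.3 and 75 CPM in T4 6 h (1.64 ± 0.34, adjusted p = 0.0026), and lay above DMSO at 24 h by 2.12 (adjusted p = 0.002). Of 36 ribosome biogenesis genes 8 rose and 5 fell (15.2% and 4.72% over all genes tested), and with library totals 10 rose and 0 fell. UBTF, the RNA polymerase I factor, rose by 1.91 (adjusted p = 3.7e-06), while NOP56, a box C/D snoRNP protein, fell by 0.91 on the log2 scale (adjusted p = 0.0073).

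Of 22 cholesterol synthesis and sterol sensing genes 4 rose and 2 fell, against 15.2% and 4.72% over all genes tested. SREBF2, a master regulator of that pathway, fell (−1.01 ± 0.22, adjusted p = 0.0033). Of 29 glycolysis and hypoxia genes 3 rose and 5 fell, including the glycolytic enzyme genes ENO1 (−0.73, adjusted p = 0.011), PFKL (−1.29, adjusted p = 0.0033) and TPI1 (−0.76, adjusted p = 0.0095). Of 27 proteasome genes 0 rose and 3 fell, whereas with library totals 1 rose and 1 fell. Of 35 nuclear-encoded oxidative phosphorylation genes 0 rose and 2 fell, whereas with library totals 1 rose and 0 fell. Of 12 mitochondrially encoded genes 0 were called by edgeR, while 2 fell with DESeq2 and 2 rose with library totals. The falls of SREBF2, ENO1, TPI1 and NOP56 were not called with library totals, and that of ENO1 was not called without T4 24 h library 1 (−0.65).

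**Figure D3:**
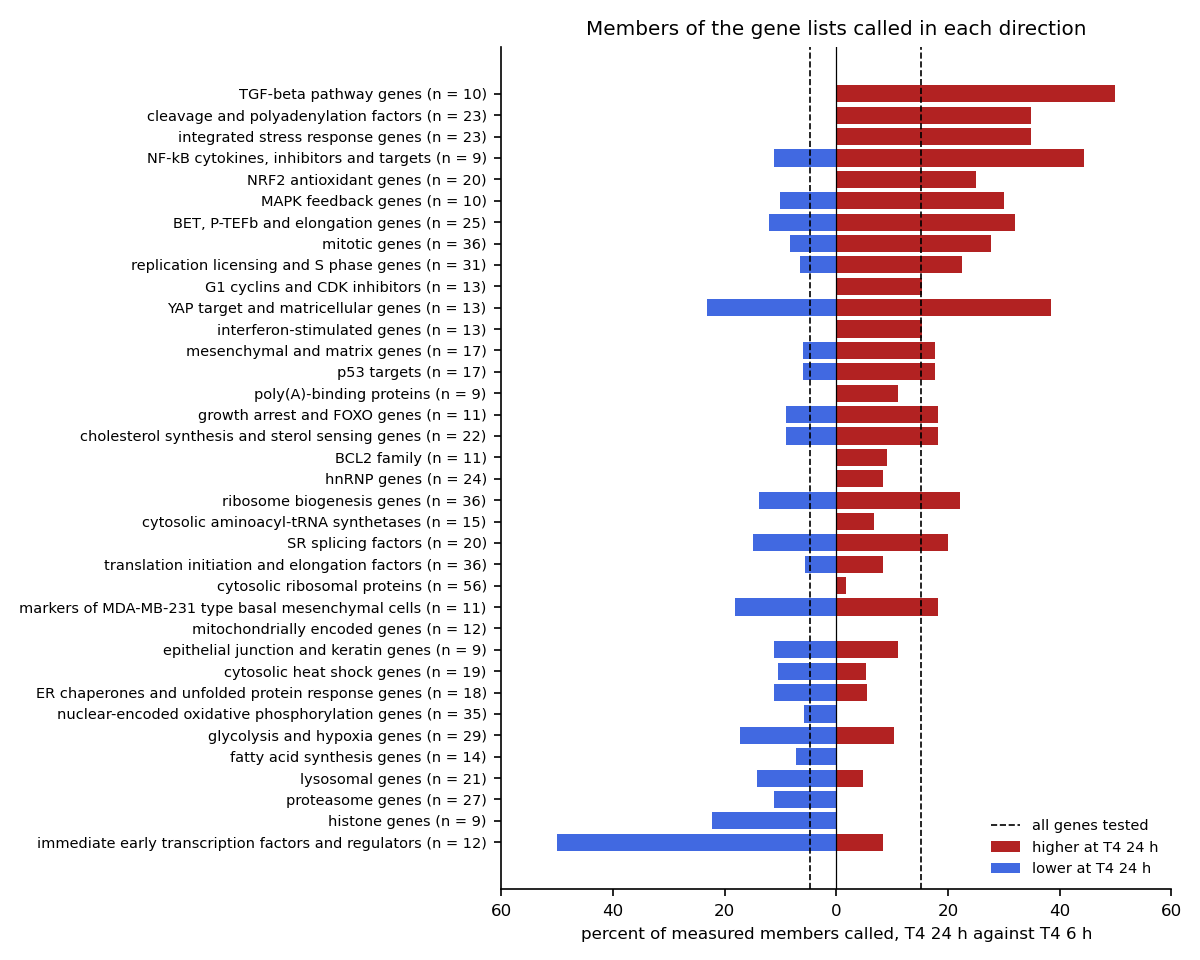
Percent of measured genes that rose (red, right of 0) and fell (blue, left of 0) between T4 6 h and T4 24 h in each of the 36 gene lists with at least 9 measured genes, with all libraries; dashed lines mark the shares over all genes tested, 15.2% and 4.72%. The TGF-β list has the longest red bar (5 of 10) and the immediate early list the longest blue one (6 of 12).

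Genes that rose were spread over longer stretches of the genome than those that fell. The median gene span was 44.3 kb for genes that rose, 13.4 kb for those that fell and 27.9 kb for all tested. Genes under 10 kb made up 12.1% of the first, 42.0% of the second and 24% of all. The 1033 genes under 5 kb had a median log2 change of −0.38, with 6.1% rising and 9.49% falling, while the 1029 genes of 80 to 160 kb had a median of 0.42, with 23.9% rising and 1.85% falling. These medians were −0.26 and 0.32 without T4 6 h library 3. With library totals they were −0.02 and 0.77, against 0.41 for all genes, so both classes kept their order, but that under 5 kb lay near 0. In DMSO, 24 h over 6 h, the medians were −0.02 for the shortest class and 0.00 for that of 80 to 160 kb. At 6 h the T4 over DMSO medians were 0.30 under 5 kb and −0.38 at 80 to 160 kb, and at 24 h they were 0.08 and 0.07. These are descriptions across genes, which are not independent replicates, and the 6 h values share the T4 6 h libraries with the change over time.

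**Figure D4:**
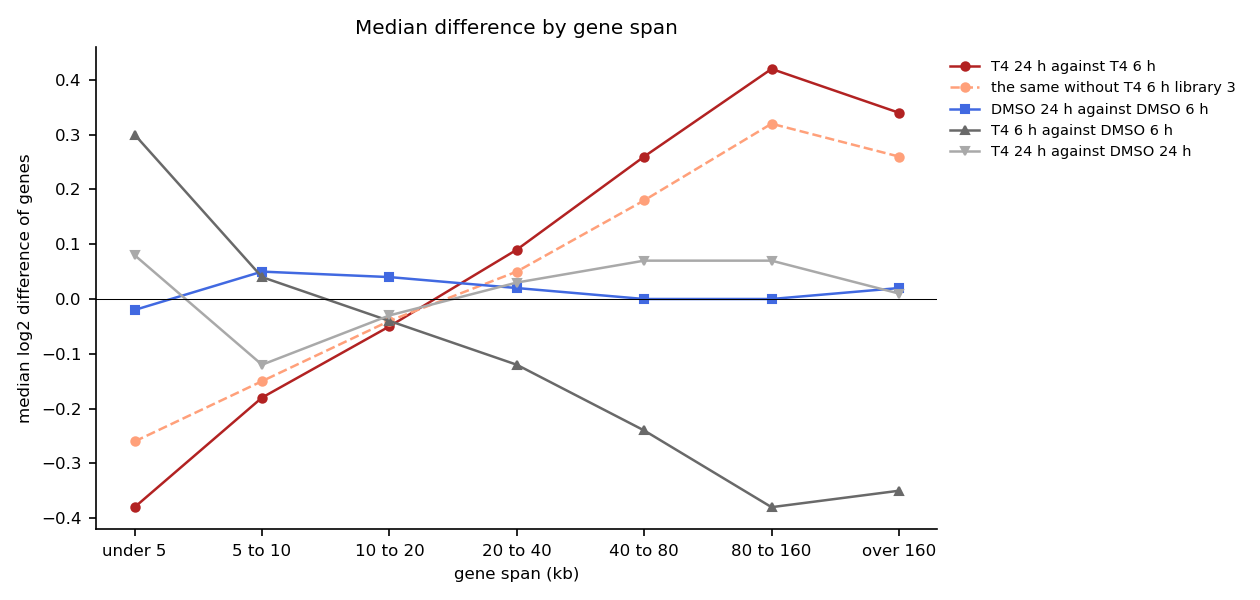
Median log2 difference of the genes in each class of gene span (kb) for T4 24 h over T4 6 h, with and without T4 6 h library 3, for DMSO 24 h over DMSO 6 h, and for T4 over DMSO at each time. The T4 medians over time run from −0.38 under 5 kb to 0.42 at 80 to 160 kb, while those of DMSO over time stay within 0.05 of 0.

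Poly(A) site use was compared in 636 genes through the 2 most used sites, scored by log2 of distal over proximal reads. Between T4 6 h and T4 24 h, 31 genes shifted (4.87%), 22 distally (3.46%) and 9 proximally (1.42%). In DMSO 0 genes shifted by edgeR (0.0%), and 39 had an unadjusted p under 0.05. The change over time differed from that in DMSO for 7 genes (1.1%), 5 of them with a more distal shift after T4 (0.786%) and 2 with a more proximal one (0.314%). With T4 6 h library 3 left out, 31 genes shifted distally and 19 proximally. With T4 6 h library 1 left out the counts were 11 and 8, and with the 6 libraries alone 5 and 4.

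The sequences at the annotated 3′ ends show what kinds of end these shifts involved. Each line gives the last 30 bases of the transcript (GENCODE 29, GRCh38), with the hexamers AATAAA or ATTAAA, the usual signal for cleavage, in capitals where a script found them.
ANKRD1 distal, chr10:90912096-90912125, minus strand: tattcatAATAAAggcaatcaaactctaaa
RNF145 distal, chr5:159157413-159157442, minus strand: ctgaatgtcttAATAAAtttaaatttgaag
EIF4A2 distal, chr3:186789865-186789894, plus strand: tgaatgttaAATAAAttgtatattcacttt
TOP3A distal, chr17:18272838-18272867, minus strand: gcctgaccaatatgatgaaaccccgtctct
TOP3A proximal, chr17:18273921-18273950, minus strand: tttaaaaaAATAAAaagaatccaaccccgg

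The first 3 are the distal ends of genes that shifted toward them after T4 6 h, and each holds AATAAA. TOP3A shifted the other way, from a distal end without either hexamer toward a proximal end that holds one. Its distal end resembles an Alu repeat, which occurs in very many copies, and 49.2% of its reads were in non-whole entries, so reads may be shared with other places and this shift is uncertain. Among genes tested, either hexamer was found in 226 of 331 distal ends with a sequence in the same annotation version (68.3%). It was found in 31 of 142 proximal ends (21.8%), which came only from genes compared by a pair of ends. The distal ends came also from genes whose proximal site was a position, so both shares cover unlike genes and cannot be compared directly. Of the called genes with such a distal end, 6 of 9 that shifted distally and 1 of 3 that shifted proximally held one. A match is a description of these 30 bases only.

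The largest shift called also in the interaction was that of AHNAK, where both the level and the site moved. The distal site took 68.4, 79.7 and 79.6% of reads in T4 24 h, against 20.9, 23 and 3.14% in T4 6 h, with DMSO at 95.5% at 24 h and 95.8% at 6 h. T4 6 h library 3 was the lowest, the groups were far apart, and T4 24 h remained below DMSO (4.32 ± 0.62, adjusted p = 8.3e-05; interaction adjusted p = 0.031; against DMSO at 24 h −2.72, adjusted p = 0.04). In level, the proximal site stood at 44.9 ± 12.9 CPM in T4 24 h and 707 ± 358 CPM in T4 6 h (SD, n = 3), while the distal site stood at 141 ± 17.6 CPM in T4 24 h and 106 ± 60.5 CPM in T4 6 h. The fall of AHNAK described above was therefore in reads of the proximal site.

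RNF145, a ubiquitin ligase of the endoplasmic reticulum, took 64.6, 59.8 and 55.2% of reads at the distal site in T4 24 h and 27.8, 23.1 and 10.8% in T4 6 h, with DMSO at 87.7% at 24 h and 84.8% at 6 h. Its groups were apart, and like AHNAK it had not reached DMSO at 24 h (2.49 ± 0.35, adjusted p = 8.3e-05; interaction adjusted p = 0.037; against DMSO at 24 h −2.26, adjusted p = 0.0013). Its distal site rose in level, with 209 ± 15.2 CPM in T4 24 h and 53 ± 26.3 CPM in T4 6 h, and its proximal site stood at 143 ± 35.9 CPM in T4 24 h and 197 ± 20.5 CPM in T4 6 h (SD, n = 3). SLC38A2, an amino acid transporter, took 83.1, 79.4 and 73.3% at the distal site in T4 24 h and 22.5, 29.8 and 36.4% in T4 6 h, with DMSO at 78.5% at 24 h and 71.7% at 6 h. All T4 24 h libraries lay near the DMSO means (3.20 ± 0.43, adjusted p = 6.5e-05; interaction adjusted p = 0.032).

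ANKRD1 and EEF1G, a translation elongation factor subunit, were the called genes whose site use lay past DMSO at 24 h, and neither had been called at 6 h. The distal site of ANKRD1 took 99.5, 99.1 and 99.8% in T4 24 h and 95.3, 89.9 and 85.7% in T4 6 h, with DMSO at 96.2% at 24 h and 96.8% at 6 h. Every T4 24 h library was above every DMSO and T4 6 h mean (4.03 ± 0.52, adjusted p = 6.5e-05; interaction adjusted p = 0.0015; against DMSO at 24 h 2.81, adjusted p = 0.003). EEF1G, named after its values were seen, took 97.9, 98.6 and 98.6% at the distal site in T4 24 h and 99.4, 99.4 and 99.5% in T4 6 h (−1.62 ± 0.34, adjusted p = 0.0054; against DMSO at 24 h −1.32, adjusted p = 0.04). MRPS25, a mitochondrial ribosomal protein, took 8.38, 10.8 and 7.5% at the distal site in T4 24 h and 1.53, 0.971 and 2.7% in T4 6 h (2.47, adjusted p = 0.001; interaction adjusted p = 0.0075). IPO7, a nuclear import receptor, took 50, 44.6 and 43.6% in T4 24 h and 13.5, 14.4 and 14.3% in T4 6 h, with DMSO at 29.6% at 24 h and 23.6% at 6 h (2.38, adjusted p = 0.0019). Its T4 24 h libraries were all above DMSO and T4 6 h, though T4 6 h library 3 held only 1 distal and 6 proximal reads. The interaction was not called for IPO7 (adjusted p = 0.17) or EEF1G (adjusted p = 0.16).

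ZNF346, an RNA-binding zinc-finger protein, and ARNT, a partner of the hypoxia-inducible factors, were the genes that shifted toward the proximal site with the interaction. ZNF346 took 70.1, 58.6 and 50.8% at the distal site in T4 24 h and 95.1, 99.2 and 96.2% in T4 6 h (−4.29 ± 0.58, adjusted p = 6.5e-05; interaction adjusted p = 0.037), but 63.0% of its reads were in non-whole entries. ARNT took 44.8, 52 and 63% in T4 24 h and 86.7, 100 and 100% in T4 6 h (−3.85 ± 0.93, adjusted p = 0.016; interaction adjusted p = 0.037). The groups of both genes were apart, those of ARNT resting on 8 to 15 reads in each T4 6 h library. TOP3A, a DNA topoisomerase, took 46.9, 42 and 45.9% in T4 24 h and 89.9, 88.9 and 96.1% in T4 6 h (−3.78 ± 0.54, adjusted p = 8.3e-05; interaction adjusted p = 0.16). CFLAR, an inhibitor of death receptor signalling, took 53.3, 50.2 and 39.7% in T4 24 h and 85.5, 85 and 85.8% in T4 6 h (−2.69, adjusted p = 0.0011), with 51.8% of reads in non-whole entries. MED22, a Mediator subunit, took 77.9, 80.4 and 80.3% in T4 24 h and 98.3, 97.1 and 97.5% in T4 6 h (−3.40, adjusted p = 0.0014), with 75.3% of reads in non-whole entries. DMSO means were also lower at 24 h than at 6 h, without a call. They were 44.4 and 62.8% for ZNF346, 34.7 and 56.4% for TOP3A, 39 and 57.3% for CFLAR and 58.7 and 76.5% for MED22. The interaction was not called for CFLAR (adjusted p = 0.3) or MED22 (adjusted p = 0.23).

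The calls of the difference from DMSO in site use were fragile to single libraries. Each of the 12 libraries of the T4 and DMSO groups was left out in turn. The direction held in all 7 genes, but only ANKRD1 (3.85 to 4.93) and MRPS25 (2.76 to 3.5) were called every time. The less used site of both held few reads in T4 libraries. ANKRD1 had 4, 11 and 3 proximal reads in T4 24 h and 14, 27 and 7 in T4 6 h. MRPS25 had 3, 2 and 5 distal reads in T4 6 h. The difference was not called in 6 of the 12 fits for AHNAK (3.65 to 5.22), in 8 for SLC38A2 (2.39 to 3.16) and ARNT (−8.17 to −4.09), in 9 for ZNF346 (−3.65 to −2.77) and in 10 for RNF145 (1.77 to 2.46). Leaving out T4 6 h library 3 ended 0 of these calls, and each of the other 11 libraries ended between 1 and 5. The shift over time itself was called with each of the 6 T4 libraries left out for AHNAK, RNF145, SLC38A2, ANKRD1, MRPS25 and ZNF346, but for ARNT it was not called without T4 24 h library 1 (−3.59, adjusted p = 0.052) or T4 6 h library 2 (−3.15, adjusted p = 0.097).

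Of the other called genes, EIF4A2, CDC6 and YIPF4 are named here after their values were seen. EIF4A2, a helicase of translation initiation, took 91.4, 93.5 and 96.2% at the distal site in T4 24 h and 73.4, 68.6 and 41.4% in T4 6 h (3.10 ± 0.61, adjusted p = 0.0027). CDC6, a replication licensing factor, took 14.8, 13.2 and 25.6% in T4 24 h and 47.1, 56.7 and 50% in T4 6 h (−2.32 ± 0.46, adjusted p = 0.0027). Its proximal site stood at 71.2 ± 20.1 CPM in T4 24 h and 15.6 ± 3.1 CPM in T4 6 h (SD, n = 3), so the rise of CDC6 as a gene (1.45, adjusted p = 4.6e-04) was in that site. The 2 entries listed for YIPF4 are 32234443 bases apart and cannot both lie in this gene, and its shift was not called without T4 6 h library 3 (adjusted p = 0.089). The interaction was not called for EIF4A2 (adjusted p = 0.19), CDC6 (adjusted p = 0.19) or YIPF4 (adjusted p = 0.44).

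At 6 h, site use differed between T4 and DMSO in 36 of the 636 genes (5.66%), 27 using the proximal site more in T4 (4.25%) and 9 the distal site (1.42%). Of the 27, 12 (44.4%) shifted back toward the distal site by T4 24 h, and of the 9, 7 (77.8%) shifted back toward the proximal site. When T4 6 h library 3 was left out, 18 of 26 (69.2%) and 7 of 8 (87.5%) did. Relative to DMSO the 27 genes had a median log2 difference of −2.34 at 6 h and −0.54 at 24 h, with 3 still called toward the proximal site. The 9 had medians of 2.43 at 6 h and 0.64 at 24 h. At 24 h, 17 of all genes tested differed between T4 and DMSO (2.67%), 9 with more distal use in T4 (1.42%) and 8 with more proximal use (1.26%). The T4 6 h libraries are again shared between both comparisons.

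Across all 636 genes, distal sites took a median of 49.2 ± 2.62% of reads in T4 24 h and 45.8 ± 7.78% in T4 6 h libraries (SD, n = 3 each), the T4 6 h libraries being at 50.4, 50.2 and 36.8%. The difference of 3.4 percentage points was within the spread (two-sided exact permutation test, p = 0.7, where 0.1 is the smallest this design allows), and without T4 6 h library 3 it was −1.1.

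**Figure D5:**
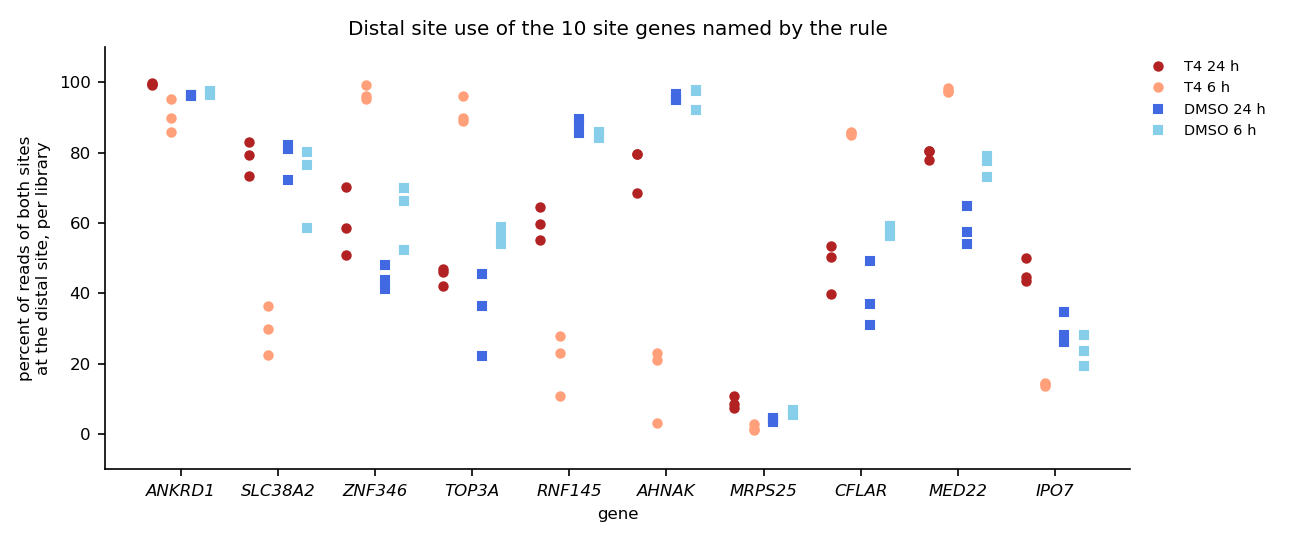
Percent of reads of both sites that lay at the distal site, in each library, for the 10 genes with the smallest adjusted p for site use; each point is a library, with T4 24 h left of T4 6 h and DMSO 24 h and 6 h to their right. AHNAK, RNF145 and SLC38A2 stand higher in T4 24 h than in T4 6 h, and AHNAK and RNF145 in T4 24 h (55.2 to 79.7%) still below DMSO.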

How the data were processed

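Total RNA of LM2 cells was sequenced from its 3′ ends with the QuantSeq REV kit, per the labels' protocols. The authors deposited expected counts (estimated counts, not normalised) per transcript end or genomic position; Salmon 0.14.1 and hg38 are named in the submitters' processing notes. Values were whole in 98.27 to 98.47% of entries of a library. Of 94924 entries, 71604 were transcript ends, of which 66115 matched GENCODE 29 (GRCh38), and 23320 were positions, each given to the gene of the transcript it is listed under. Only 9.79% of positions lay within that transcript's GRCh38 span, so no coordinate of a position is printed. Entries left out held 1.673 to 4.234% of reads.

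A gene's level is the sum of its entries, rounded to whole counts and tested with edgeR 4.0.16 (quasi-likelihood, TMM scaling, its expression filter, R 4.3.3) over all 18 libraries, n = 3 a group, with Benjamini-Hochberg adjustment over 8035 genes. The biological coefficient of variation was 24.8%. Site use was the interaction of site and group for a gene's 2 most used sites, both averaging 10 counts or more; 170 genes whose site order was unknown were left out. Ends were taken as distal to the positions under them. Of 2275 neighbouring gene pairs on opposite strands, 98.73% place the end downstream. Of 5361 runs of positions, 98.49% are listed from downstream to upstream, a check that holds no ends. Of the 636 genes tested, 142 compare a pair of ends, 102 a pair of positions and 392 an end with a position. Total counts per library were 925167 to 1642336.

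Genes were named by a rule: the 12 largest rises and falls among calls that held without T4 6 h library 3, did not overlap between groups, had a mean of at least 20 CPM in the higher group and under 50% of reads in non-whole entries; up to 4 genes with the smallest adjusted p per list, for 48 lists; the largest changes less DMSO, rebounds and overshoots; and up to 10 genes by site use. Members and lists were chosen with earlier results of these data known. Alternatives were scaling by median of ratios or library totals, DESeq2 1.42.0, limma 3.58.1 for site use, other filters, a replicate block, fits to the groups compared alone and each replicate left out. Those on rebound, lists and gene span were chosen after seeing the data. Both tests were also tried on simulated data, with the same spread for all genes and libraries and no library of low complexity. Some genes and a sequence that meet the naming rule are not reported here. Sequences are from GENCODE 29 transcripts and promoters from the RefSeq table. Python 3.11.15, pandas 2.3.3, scipy 1.17.1 and matplotlib 3.10.9 were used.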

Additional observations from a re-analysis of the deposited data

Results flagged for a closer look

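The change between 6 h and 24 h differed between T4 and DMSO, by the test of that difference itself, for 731 genes in level (edgeR interaction, Benjamini-Hochberg adjusted). GDF15 is an example, with 70.3 ± 14 CPM in T4 24 h and 26.2 ± 6.13 CPM in T4 6 h, against 16.9 CPM in DMSO 24 h and 28.4 CPM in DMSO 6 h (means, SD, n = 3 libraries each; interaction 2.19, adjusted p = 7.8e-04). In poly(A) site use the same difference was called for 7 genes: ANKRD1, SLC38A2, RNF145, AHNAK and MRPS25 toward the distal site, and ZNF346 and ARNT toward the proximal site. Of these, ANKRD1 and MRPS25 were called with each of the 12 T4 and DMSO libraries left out in turn, and the other 5 were not. The less used site of ANKRD1 and of MRPS25 held few reads in T4 libraries, as given above.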

How the results depend on the processing

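For T4 24 h against T4 6 h the 1602 genes called became 1002 (811 rose, 191 fell) with same-version transcript ends only, and 491 with only the groups compared, and ranged from 1188 to 1878 with each replicate left out. The falls, 379, ranged from 220 without T4 24 h replicate 2 to 596 without T4 6 h replicate 3. Rises and falls were 1085 and 720 with DESeq2, 1250 and 725 with no expression filter, and 895 and 289 at a mean of at least 20 counts. The 731 interaction genes became 435 with same-version ends and ranged from 514 to 1127, the highest without T4 6 h replicate 3. With DESeq2, no filter and only the groups compared, DMSO 24 h against 6 h gave 3, 105 and 617 genes. T4 against DMSO at 6 h, 1287, gave 729 with same-version ends and 413 with only the groups compared. T4 against DMSO at 24 h, 421, gave 765 with DESeq2, 1062 with no filter, 277 with same-version ends and 1969 with only the groups compared, and 164 to 229 with each replicate left out, so overshoot calls rest on it. Genes lower and higher at 6 h that were called the opposite way at 24 h numbered 35 and 15 with DESeq2. They numbered 15 and 3 with median-of-ratios factors, and 9 and 0 with library totals. The 31 site genes became 7 at a mean of at least 50 counts per site and 9 with only the groups compared, and ranged from 19 to 50; the 7 interaction genes became 3 and 2, and ranged from 2 to 13. The causes were not tested.

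The median percent at the distal site differed by 3.4, and by −1.1 to 5.7 with each T4 replicate left out, negative only without T4 6 h replicate 3. Signs also turned for NQO1 (−0.04 to 0.59 with each replicate left out), FKBP4 (0.50 with same-version ends), MT-CO3 (0.13 with library totals) and MT-ATP6 (0.39 with library totals, 0.01 with same-version ends, 0.00 with only the groups compared, and −0.24 to 0.21 with each replicate left out). Of the replicates left out, T4 6 h replicate 3 alone turned NQO1 and MT-ATP6. Over 154 named genes, 247 of the alternative values lost a call and 5 gained one, 63 of the losses with only the groups compared and 27 with library totals. Same-numbered T4 24 h and T4 6 h libraries did not deviate together (correlations −0.304 to 0.00856). No sign of pairing by number was thus seen, though so few libraries a group cannot exclude it. With a replicate block 1470 genes were called, 622 in the interaction, 360 for T4 against DMSO at 24 h, and 28 and 6 for site use. By site use, TOP3A was not called between its most proximal and most distal sites (−1.43), and ZNF346 lost its difference from DMSO under the block (−3.18). Genes with few reads limit what this depth can show.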

Other observations

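Letters searched for in the 250 bases before gene starts, on either strand, were found about equally often in both directions of change. Among promoters matched in the RefSeq table (984 of the 1223 genes that rose, 259 of the 379 that fell and 5948 of 8035 tested), TATAAA was found in 4.37, 4.25 and 4.56%, CCAAT in 33.4, 35.1 and 35.5%, and GGGCGG in 69.5, 69.5 and 69.7%. These shares are descriptions of the letters in that window and say nothing about any factor.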
